A study of Drosophila melanogaster with 2 samples.

Results

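Small nuclear RNA (snRNA) genes were examined for binding of Ssrp, a subunit of the histone chaperone FACT, which opens and rebuilds nucleosomes in the path of a polymerase. The members were the 32 genes to which the Ensembl annotation of the fly assembly dm6 gives the biotype snRNA, out of 18277 genes on 7 chromosomes. The rule uses the annotation alone and no peak value. The chromatin came from whole Drosophila melanogaster embryos of mixed sex, 0 to 16 h old, from a transgenic line that stably expresses Ssrp fused to GFP at its C-terminus, and was immunoprecipitated with an anti-GFP antibody and sequenced (ChIP-seq). All samples carried the transgene, and no label names the promoter that drives it. The 2 biological replicates formed 1 group, with no second condition; chromatin was sonicated to 200 to 800 bp, and input or control chromatin was not analysed here. Peak lists were deposited: one for each replicate and one for the pooled replicates, with 30000 peaks each, and one of 5445 peaks kept by the IDR (irreproducible discovery rate) procedure, which keeps peaks whose ranks repeat between replicates. Read depth is unknown, since the lists hold no read numbers.

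snRNAs are the RNA cores of the spliceosome, the machine that removes introns from messenger RNA precursors. U1 pairs with the start of the intron and U2 with its branch point, while U4, U5 and U6 join as a preassembled particle in which U4 holds U6 inactive until the catalytic core forms. U11, U12, U4atac and U6atac do the same work on a rare class of introns. RNA polymerase II makes most of these RNAs, and polymerase III makes U6, U6atac and 7SK. Genes of both kinds are switched on in flies through a shared upstream element, the PSEA, that the SNAPc complex binds, and at polymerase II snRNA genes the Integrator complex cuts the nascent transcript just past the 3′ end.

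The members were not all spliceosomal. By their names, 24 encode RNAs of the major spliceosome (5 U1, 6 U2, 3 U4, 7 U5 and 3 U6 genes), 4 those of the minor spliceosome, and 3 other RNAs, namely U7, which guides the 3′ end cut of histone messenger RNAs, and 2 copies of 7SK, which holds the elongation kinase P-TEFb inactive. The name of snRNA:LU gives no type. Polymerase III types numbered 6 and the others 26. The genes were 71 to 444 bp long and lay on 2L (16), 3R (10), 3L (4) and X (2).

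Most snRNA genes shared a short upstream word at a nearly fixed place, and the upstream sequences are shown because they differ between genes of the polymerase II and III types. In the 100 bases before the start, the 8-base word shared by most members was ATTCCCAA, present on the sense strand in 26 of 32 (81.2%), always with its first base 56 to 62 bases before the start (median 59). Over all genes 0.460% had it on the sense strand and 0.673% on either strand. With any base after ATTC (ATTCNCAA, a form chosen after the sequences were seen) it occurred in 31 members, all but 7SKb, and in 1.27% of all genes on the sense strand or 2.14% on either strand. The letters TATA between 40 and 20 bases before the start on the sense strand occurred in 6 members (18.8%) and in 14.6% of all genes. They were found in 5 of the 6 polymerase III members and in 1 of 21 U1, U2, U4 and U5 genes, U4:39B. A match is a description of letters and not of a bound site, and the word was picked on these promoters. The 80 bases before the start are printed from the RefSeq copy of the assembly (release 6), 5′ to 3′ on the sense strand, with the word and the TATA letters in capitals.
U1:21D (chr2L:901655-901734, minus strand): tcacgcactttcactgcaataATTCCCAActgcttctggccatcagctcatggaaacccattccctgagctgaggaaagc
U1:95Ca (chr3R:23859631-23859710, minus strand): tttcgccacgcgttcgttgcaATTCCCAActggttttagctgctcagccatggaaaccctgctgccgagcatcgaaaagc
U2:34ABb (chr2L:13215759-13215838, plus strand): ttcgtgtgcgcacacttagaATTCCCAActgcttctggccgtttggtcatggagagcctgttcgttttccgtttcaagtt
U4:39B (chr2L:21215179-21215258, minus strand): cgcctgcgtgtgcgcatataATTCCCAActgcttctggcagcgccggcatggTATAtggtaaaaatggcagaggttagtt
U5:63BC (chr3L:3090721-3090800, plus strand): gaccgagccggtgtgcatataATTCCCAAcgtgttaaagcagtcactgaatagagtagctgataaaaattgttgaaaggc
U6:96Aa (chr3R:24556008-24556087, plus strand): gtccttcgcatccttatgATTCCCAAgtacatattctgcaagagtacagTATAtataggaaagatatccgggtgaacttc
U6:96Ab (chr3R:24556612-24556691, plus strand): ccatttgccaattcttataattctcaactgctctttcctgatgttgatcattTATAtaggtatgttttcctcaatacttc
U6:96Ac (chr3R:24557135-24557214, plus strand): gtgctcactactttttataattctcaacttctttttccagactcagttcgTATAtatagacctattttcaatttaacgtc
7SKa (chr3R:7474997-7475076, minus strand): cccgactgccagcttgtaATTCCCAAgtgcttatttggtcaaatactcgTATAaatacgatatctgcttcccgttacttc

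A minority of snRNA genes had an Ssrp-GFP summit nearby among the reproducible peaks, and all these peaks were of modest strength. In the IDR list, 6 of 32 members (18.8%) had a summit within 500 bp of the gene: U1:21D, U1:95Ca, U2:34ABb, U5:63BC, U6:96Ab and U6:96Ac. These stood for 5 distinct peaks, since both U6 genes lay beside the same one. By the same rule 23.0% of all genes, most of them far longer than an snRNA gene, had an IDR summit. So did 6.93% of the 1963 other noncoding genes of at most 444 bp. These are annotated as ncRNA, tRNA, snoRNA or rRNA and have no lower length limit. Only 1480 of them have 32 bp or more, so the set also holds genes shorter than any snRNA gene (71 bp or more). Among tRNA genes the share was 5.86% (17 of 290) and among snoRNA genes 7.81% (21 of 269). Genes within a class can share a peak, so these shares are given side by side and were not tested against each other. The signals at the members, which are the authors' own peak values and are comparable only within a list, ran from 160 to 221, below the list median of 292 in every case, and the ranks ran from 3766 to 5333 of 5445.

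By type, the IDR list marked 4 of the 21 U1, U2, U4 and U5 genes (2 of 5 U1, 1 of 6 U2, 0 of 3 U4 and 1 of 7 U5), 2 of 3 U6 genes, and 0 of the 4 minor spliceosome genes. U7, LU and both 7SK genes had none either. No more than a count can be drawn from groups of this size.

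**Figure D1:**
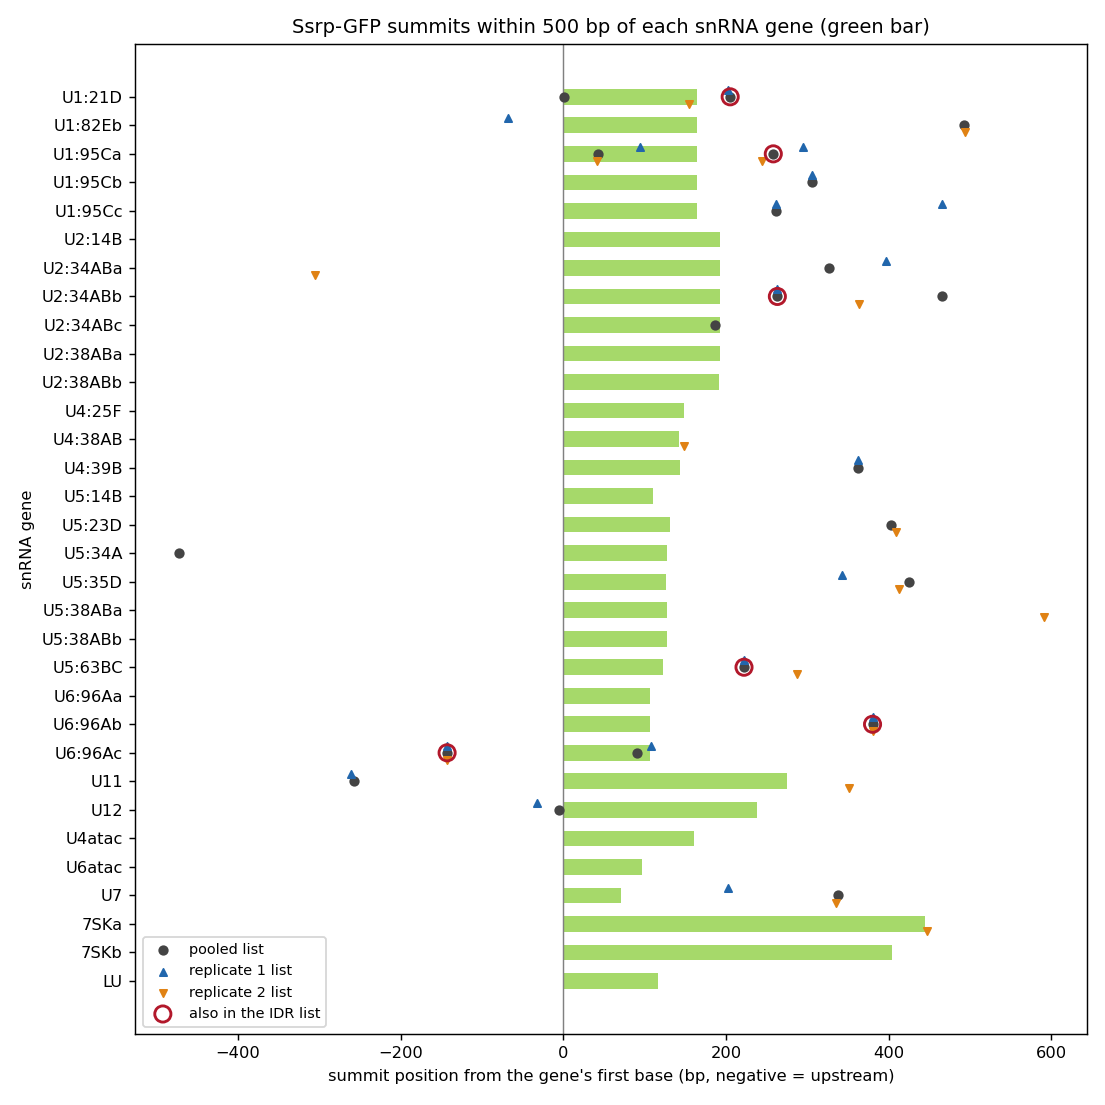
Position of each summit within 500 bp of an snRNA gene, in bp from the first base of the gene on its own strand, with the gene drawn as a green bar, 1 row per gene and 1 marker shape per list; red rings mark peaks also in the IDR list. At U1, U2 and U5 genes the IDR summits lie to the right of the bar, 42 to 100 bp past its end, while their peaks overlap the gene. The summit of the single U6 peak lies between 2 genes.

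At the 4 polymerase II members of the IDR list the deposited IDR summit lay 42 to 100 bp past the 3′ end of the gene. Each of these peaks overlapped its gene and had its summit at its centre. The commonest peak width in the IDR list was 396 bp, and the sonicated fragments were longer than these offsets. Summits also moved between replicates, so binding beyond the gene cannot be told apart from binding at its 3′ part. At U1:21D (FBgn0003916; 2L, 901491 to 901654, minus strand) the IDR peak ran from 901251 to 901646 with its summit 42 bp past the 3′ end, a signal of 174 and rank 4889. The same site had a signal of 91.5 and rank 5015 in replicate 1, with the summit 39 bp past the end, and a signal of 71.6 and rank 6142 in replicate 2, where the summit lay inside the gene, 154 bp from its first base. Both replicates thus placed it close to the 3′ end, and a weaker pooled peak (signal 64.0, rank 18356) had its summit 1 bp from the first base of the gene.

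U1:95Ca (FBgn0004185, 3R, 23859467 to 23859630, minus strand) has the same 164 bp sequence as U1:21D. Its IDR peak (23859174 to 23859569, signal 184, rank 4645) had its summit 95 bp past the 3′ end, against 42 bp at U1:21D. In replicate 1 the summit was 132 bp past the end (signal 107, rank 4028) and in replicate 2 it was 81 bp past the end (signal 77.8, rank 5644). A weaker pooled peak (signal 111, rank 8074) had its summit inside the gene, 42 bp from the first base, and each replicate had a summit inside the gene as well, at 94 bp (rank 7682) and 41 bp (rank 9445). No start site of a protein-coding gene lay nearer to the IDR summit than that of Pli, 30680 bp away.

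At U2:34ABb (FBgn0004192; 2L, 13215839 to 13216030, plus strand) the IDR peak from 13215904 to 13216299 had its summit 72 bp past the 3′ end, the lowest signal of the 5 sites (160) and rank 5333. Replicate 1 had the summit at the same base (signal 114, rank 3711) and replicate 2 had it 172 bp past the end (signal 59.8, rank 7325). The nearest other start site, of kek4, was 752 bp from the IDR summit.

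U5:63BC (FBgn0003938; 3L, 3090801 to 3090923, plus strand) had the highest signal of the members, 221 at rank 3766, in a peak from 3090825 to 3091220 with its summit 100 bp past the 3′ end. Replicate 1 had it at the same base (signal 150, rank 2527), while replicate 2 had it 165 bp past the end (signal 65.8, rank 6660). The nearest start site of any other gene, that of a cysteine tRNA, was 4714 bp away.

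The sequences past the 3′ ends of these 4 genes are shown because the summits fall there. Each line begins with the last 20 bases of the gene in capitals and runs 140 bases beyond it on the sense strand, with the 11 bases centred on the IDR summit also in capitals. Beyond the gene the GC content of the 4 stretches was 34.3% (U1:21D), 31.4% (U1:95Ca), 25.7% (U2:34ABb) and 19.3% (U5:63BC), against 42.1% over the 7 chromosomes.
U1:21D (chr2L:901351-901510, minus strand): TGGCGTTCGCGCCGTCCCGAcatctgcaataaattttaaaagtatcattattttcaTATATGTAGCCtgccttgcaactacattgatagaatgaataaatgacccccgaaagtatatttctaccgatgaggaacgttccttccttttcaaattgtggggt
U1:95Ca (chr3R:23859327-23859486, minus strand): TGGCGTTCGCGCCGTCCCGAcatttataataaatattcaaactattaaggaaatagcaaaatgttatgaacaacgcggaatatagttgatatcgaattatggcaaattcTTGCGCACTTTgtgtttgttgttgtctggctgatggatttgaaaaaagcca
U2:34ABb (chr2L:13216011-13216170, plus strand): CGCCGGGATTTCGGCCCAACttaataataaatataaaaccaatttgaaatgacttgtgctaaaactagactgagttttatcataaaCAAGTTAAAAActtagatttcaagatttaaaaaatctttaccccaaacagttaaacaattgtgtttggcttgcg
U5:63BC (chr3L:3090904-3091063, plus strand): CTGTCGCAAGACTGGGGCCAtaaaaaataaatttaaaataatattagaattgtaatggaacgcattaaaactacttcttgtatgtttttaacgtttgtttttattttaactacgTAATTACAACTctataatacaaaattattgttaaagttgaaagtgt

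The IDR list held a single peak near polymerase III members, and its summit lay between U6 genes. The 3 U6 genes lie in a row on 3R in the same orientation, 107 bp each and identical in sequence, with U6:96Aa 498 bp from U6:96Ab. The IDR peak (24556874 to 24557269, signal 211, rank 3953) had its summit between the latter genes, 143 bp before the start of U6:96Ac (FBgn0004190) and 274 bp past the end of U6:96Ab (FBgn0004189). Both replicates placed the summit at that base, with signals of 105 and 93.8 and ranks 4137 and 4726. A weaker pooled peak (signal 53.7, rank 24416) had its summit inside U6:96Ac. Of the 5 sites this was the highest in replicate 2. The summit was 8055 bp from the nearest start site of a protein-coding gene, that of Esyt2. U6:96Aa (FBgn0004188), the first gene of the row, was 878 bp from this summit and had no summit within 500 bp in any list. The 200 bases before U6:96Ac and its first 20 bases are printed with the gene bases and the 11 bases around the summit in capitals.
U6:96Ac (chr3R:24557015-24557234, plus strand): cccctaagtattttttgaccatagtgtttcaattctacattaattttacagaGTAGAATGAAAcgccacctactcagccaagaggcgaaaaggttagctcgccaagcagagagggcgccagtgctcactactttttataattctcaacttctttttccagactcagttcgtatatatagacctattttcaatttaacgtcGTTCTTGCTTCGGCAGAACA

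Members just outside the limit of 500 bp show how the rule divides neighbours. In the IDR list, the farthest of the nearest summits counted was the one 274 bp from U6:96Ab, and the closest summit to a member left uncounted lay 598 bp from 7SKa (3R, 7474553 to 7474996). That peak was among the strongest of the genome, with a signal of 2084 and rank 62 of 5445, and its summit was 174 bp upstream of the start site of CG1142. The next lay 677 bp from U11 (signal 391, rank 1814), 195 bp upstream of a start site of Fie, the gene that holds U11, and 813 bp from U5:38ABb (signal 178, rank 4790).

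The replicates ranked the sites differently. Among the 5445 strongest peaks of replicate 1 there were summits near 7 members (21.9%), the 6 of the IDR list and U4:39B, against 23.3% of all genes and 8.66% of the short noncoding genes. Among those of replicate 2 there were 3 (9.38%), U6:96Ab, U6:96Ac and 7SKa, against 22.8% and 5.86%. The mean was 5 ± 2.83 members (SD, n = 2). In replicate 2 the 4 polymerase II sites ranked 5644 to 7325, just beyond that number. The 7SKa summit of replicate 2 lay 4 bp past the 3′ end at rank 3963, and replicate 1 had none within 500 bp.

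**Figure D2:**
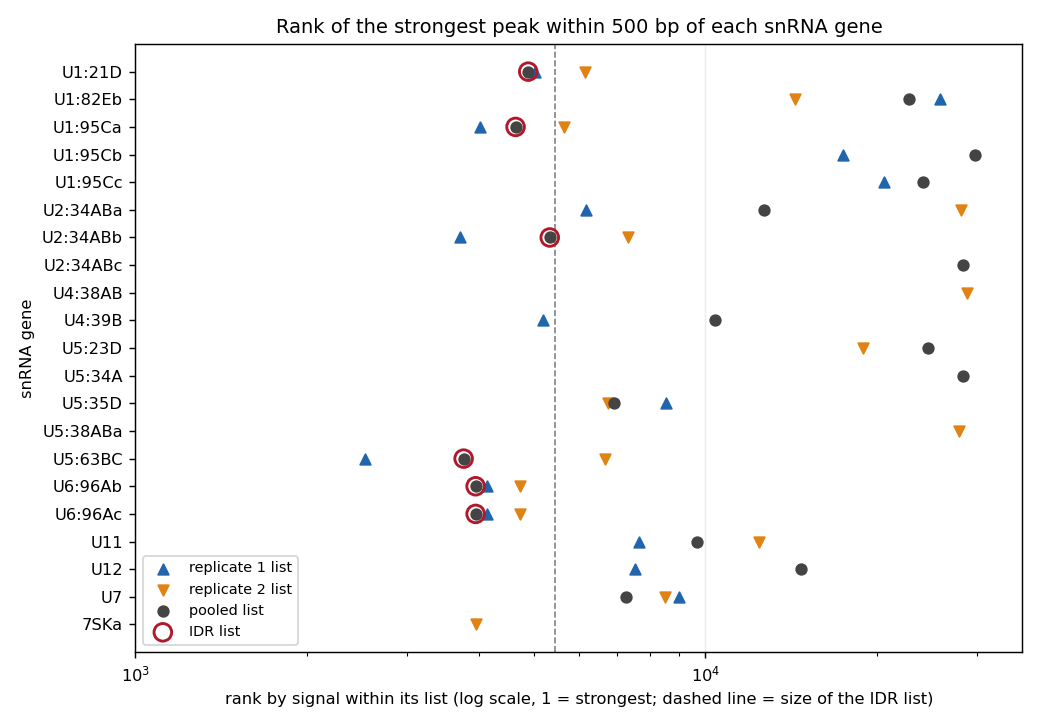
Rank by signal within each list (log axis, 1 is the strongest) of the strongest peak within 500 bp of each snRNA gene, for the genes that have one; the dashed line marks rank 5445, the size of the IDR list. The 6 genes of the IDR list sit near that line in every list, and the 4 polymerase II genes among them lie to its left in replicate 1 and to its right in replicate 2.

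In the pooled list, which reaches down to weak peaks, 18 of 32 members (56.2%) had a summit within 500 bp, from 20 distinct peaks. The same rule gave 53.1% of all genes and 37.4% of the short noncoding genes. The share was near that of all genes, most of them far longer, and above that of the short noncoding genes. Neither difference was tested. Each replicate list gave 15 members (46.9%, mean 15 ± 0, SD, n = 2). In replicate 1 the share was 53.8% of all genes and 39.1% of the short noncoding genes. In replicate 2 it was 54.1% and 36.1%. Of the members, 11 had a summit in both replicate lists and 13 in neither. No like counts were made over all genes, so whether these are unusual is not known. Of the 20 pooled peaks 8 (40%) had a summit within 200 bp in both replicates, against 53.7% of all pooled peaks, while all 5 IDR peaks did, against 98.5% of that list. The pooled list was made from both replicates, so these matches describe support within it and are not independent of it.

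All 5 U1 genes had a pooled summit. Beside those already given, U1:82Eb had its summit 330 bp past the 3′ end (signal 56.1, rank 22783), U1:95Cc 98 bp past it (54.2, rank 24098) and U1:95Cb 142 bp past it (47.2, rank 29662), all below the median of the pooled list, 72.3. Replicate 1 had a summit at the same base as the pooled one for U1:95Cc and U1:95Cb, and replicate 2 had none within 500 bp of either. For U1:82Eb replicate 2 had its summit 331 bp past the end, and replicate 1 had one 68 bp upstream of the gene.

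Of the U2 genes 3 of 6 had a pooled summit. At U2:34ABa it lay 135 bp past the 3′ end (signal 80.6, rank 12654), and this was also 24 bp downstream of the start site of CG15482. Replicate 1 had it 205 bp past the end and replicate 2 had a weak summit 306 bp upstream of the gene instead. U2:34ABc and the neighbouring U5:34A shared a single weak peak (signal 48.8, rank 28317) whose summit fell inside U2:34ABc. Neither replicate had a summit within 500 bp of either gene.

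Among U5 genes 4 of 7 had a pooled summit. U5:35D was the strongest after U5:63BC, with a summit 300 bp past the 3′ end (signal 127, rank 6911), and replicates 1 and 2 had it 217 and 287 bp past the end at ranks 8534 and 6737. The pooled summit was also 179 bp upstream of the start site of ND-B17, a complex I subunit gene. At U5:23D it lay 273 bp past the end (signal 53.6, rank 24549), with 279 bp in replicate 2 and no summit in replicate 1. Among U4 genes only U4:39B had a pooled summit, 220 bp past the 3′ end (signal 92.1, rank 10390), at the same base in replicate 1 (rank 5185), and replicate 2 had none within 500 bp.

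Outside the major spliceosome, 3 of 8 members had a pooled summit. U7 (3L, 3593823 to 3593893) had it 267 bp past the 3′ end (signal 122, rank 7249), with 132 bp at rank 8981 in replicate 1 and 265 bp at rank 8499 in replicate 2, and the nearest other start site, that of CG10359, was 18032 bp from the pooled summit. U11 and U12 had theirs on the other side, 257 and 5 bp upstream of the gene, at ranks 9655 and 14733. U11 had its replicate 2 summit 77 bp past the 3′ end, and U12 had none in replicate 2.

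Some members, 11 in all, had no summit within 500 bp in any list, a count not made over all genes. They were U5:14B and U2:14B, the neighbouring pair on X whose nearest pooled summits were 2842 and 3506 bp away, U2:38ABa, U2:38ABb and U5:38ABb in the cluster inside sick, U4:25F, U6:96Aa, U4atac, U6atac, 7SKb and LU. In that cluster U4:38AB and U5:38ABa had summits only in replicate 2, at ranks 28785 and 27892. U4atac missed the limit narrowly, with a pooled summit at 539 bp. For 7SKb the nearest pooled summit was 36956 bp away.

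Members were also counted by whether they lie inside a protein-coding gene, a split made after the values were seen. Of the 16 members that lie inside a protein-coding gene, 0 had an IDR summit within 500 bp and 7 had a pooled one, and 5 of the 16 sit in the single cluster in sick, where 0 had a pooled one. Of the 16 others, 6 had an IDR summit and 11 a pooled one. Over all genes the shares were 23.0% and 53.1%. Of the other short noncoding genes inside a protein-coding gene 5.38% had an IDR summit and 40% (394 of 985) a pooled one, and of those outside 8.49% and 34.9%. The difference was not tested.

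Across the members the summits lay mostly past the 3′ end, a count by side that was chosen after the positions were seen. Of the 18 members with a pooled summit, the strongest lay downstream of the gene at 13 (72.2%), inside it at 1 and upstream at 4, and where it was downstream the distance from the 3′ end ranged from 42 to 330 bp with a median of 142. Replicate 1 gave 11 of 15 downstream and replicate 2 gave 12 of 15. Counted once each and placed by the nearest member, 13 of the 20 distinct pooled peaks (65%) were downstream, 4 inside and 3 upstream. With a limit of 250 bp in place of 500, 11 members had a pooled summit, and at 8 of them the strongest lay downstream. These sides are those of the summits alone, and at 10 members a pooled peak itself overlapped the gene.

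In the other short RNA classes the pooled summits were spread about evenly over both sides. The strongest summit was downstream at 46.9% of the tRNA genes with one (67 of 143) and at 46.3% of the snoRNA genes (75 of 162). Among all short noncoding genes other than snRNA genes, a set that includes tRNA and snoRNA genes, it was 46.1% (339 of 735). Flanks of equal length were searched on both sides. The difference between these classes was not tested, because members in clusters share peaks and are not independent.

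**Figure D3:**
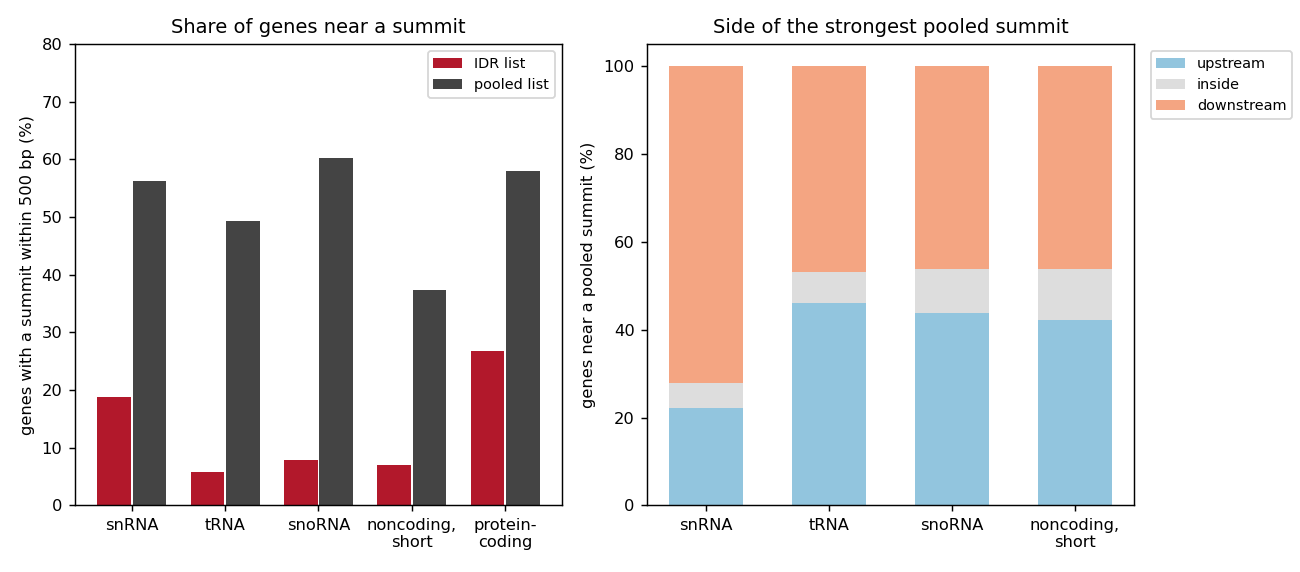
Left, percent of genes of each class with a summit within 500 bp of the gene in the IDR and pooled lists; right, for genes with a pooled summit, the percent whose strongest summit lies upstream of, inside or downstream of the gene. The downstream share is 72.2% for snRNA genes and between 46.1% and 46.9% for the other RNA classes. The short noncoding class includes tRNA and snoRNA genes.

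Start sites of other genes near these summits were counted, without a like count over all peaks. None of the strongest IDR summits and 2 of the 18 strongest pooled summits, those of U2:34ABa and U5:35D, had a protein-coding start site within 500 bp. The strongest summit was nearer to another gene's start site than to the member's own at 1 member in the IDR list and 4 in the pooled list. GC content was also taken within 50 bp of each summit. It had a median of 35.6% (range 21.8 to 39.6) at the 5 IDR peaks, against 28.7% over the IDR list, and 37.6% at the 20 pooled peaks, against 38.6% over the pooled list. GC content in the 500 bp downstream was lower than in the 500 bp upstream at 19 of 32 members, with medians of 36.6% downstream and 36.1% upstream.

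Copies of U1, U2 and U6 are nearly identical, while those of the other types are less so. The 5 U1 genes were 98.2% to 100% identical, with 3 identical pairs among U1:21D, U1:95Ca and U1:95Cb, the 6 U2 genes 98.4% to 100% and the 3 U6 genes 100%, while U4 and U5 copies ranged from 73.8% to 94.4% and from 78.3% to 96.1%. The 2 genes named 7SK were 49.7% identical. Of the 32-base words inside a member a median of 35.5% occurred once in the 7 chromosomes, and 9 members had 0%, among them U1:21D, U1:95Ca, U2:34ABb and every U6 gene. Other short noncoding genes of at least 32 bp had a median of 100%. The flanks were mostly unique on both sides, with a median of 100% upstream and downstream and lower values downstream than upstream at 7 members. The lowest values were at U2 genes, with 5.97% unique words downstream of U2:34ABc and 28.4% and 33.9% downstream of U2:38ABb and U2:38ABa. The labels do not say how reads with several matches were treated, so a missing summit inside U1, U2 or U6 genes cannot be told apart from reads that could not be placed. The part of repeated sequence in the side of the summits was not tested.

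**Figure D4:**
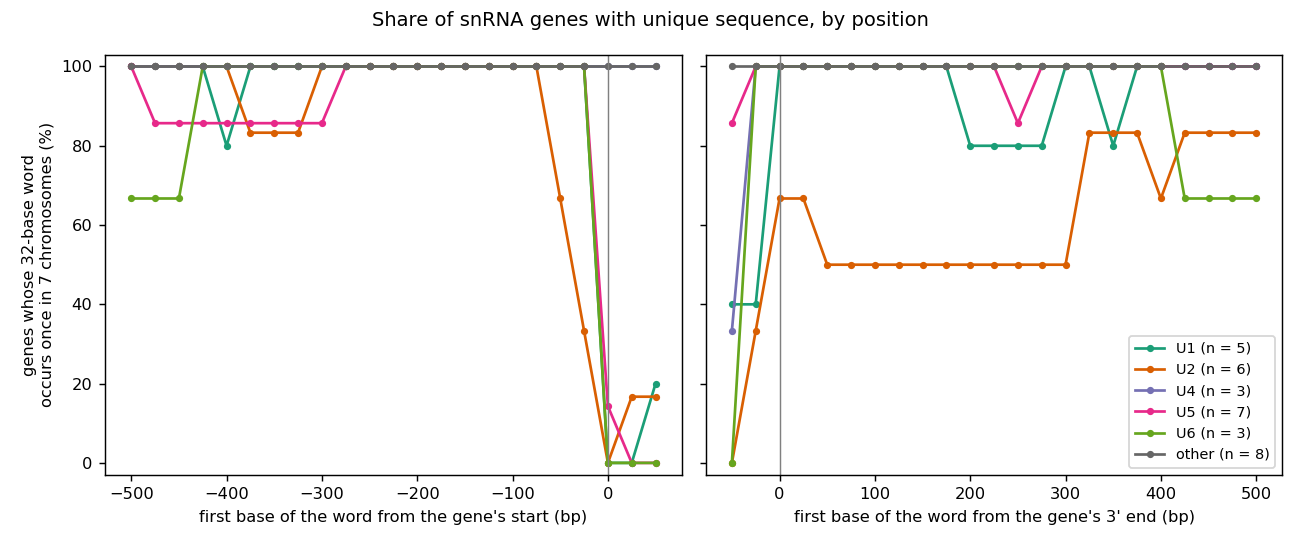
Percent of genes of each type whose 32-base word at a given position occurs once in the 7 chromosomes, by distance in bp from the start of the gene (left) and from its 3′ end (right). At the first base the share is 0% for U1, U2 and U6 genes, 14.3% for U5 genes and 100% for U4 genes, and U2 genes stand at 50% at 50, 150 and 250 bp past the 3′ end.

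Genes of snRNA transcription, processing and assembly and of the Sm and LSm protein families were looked up at their start sites. Not every family member is a partner of an snRNA. Of all protein-coding genes 19.3% had an IDR summit within 500 bp of a start site. Of the Integrator subunit genes 6 of 14 had one, led by IntS6 (signal 726, rank 736), IntS9 (525, rank 1218) and IntS11, the nuclease that cuts the nascent snRNA (480, rank 1397). Their summits lay 420, 96 and 124 bp upstream of a start site. Of 12 genes for factors that transcribe snRNA genes 4 had one, with the polymerase III initiation factor genes Bdp1 (signal 1758, rank 119, 102 bp upstream) and Brf (1239, rank 253, 169 bp upstream) the strongest and Ice1, of the little elongation complex, next (503, rank 1298).

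Particle-specific snRNP protein genes had 4 of 15, led by Prp31 (signal 669, rank 831), U4-U6-60K (398, rank 1772) and snRNP-U1-C (335, rank 2246). The Sm family genes had 1 of 6, SmD2 (186, rank 4566), and the LSm family genes 1 of 4, LSm1 (433, rank 1579). The snRNP assembly and export genes had 1 of 13, Cbp20, of the nuclear cap-binding complex (288, rank 2761). These are counts of small lists beside the background share and were not tested. Of the symbols listed, 8 matched no gene name in the annotation, which does not mean that the genes are absent. They were 1 of the Sm list (SmG), 4 of the LSm list (LSm2, LSm5, LSm6 and LSm8), 2 of the snRNP list (SF3a3 and Prp28) and 1 of the assembly list (Art5). The Sm and LSm counts thus cover only part of each family.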

How the data were processed

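ChIP-seq of Ssrp-GFP in whole embryos gave 4 deposited peak lists on dm6. Per the texts deposited with the samples, each replicate list came from its own alignment and 1 further alignment shared by all lists, the pooled one from all 3, and the IDR list from the other 3 lists. No label or header used here names the aligner, the peak caller or the IDR threshold. The signal per peak and the −log10 q-value per peak are the values the authors deposited, the latter reaching 3.85 in the pooled list, and ranks were taken inside each list alone. The summit is the deposited start plus offset. Summits outside their peak were moved to its nearest base, 4 in the IDR list, 5 in the pooled list and 3 in replicate 2.

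Genes came from Ensembl release 115 and sequence from assembly release 6, over 7 chromosomes. A gene counted when a summit lay within 500 bp of either end or inside it; protein-coding pathway genes counted at their start sites. Distances were checked on planted summits. Every result is a count or value without a test, since 1 group of 2 replicates has nothing to compare. Alternatives were other distances, peak overlap, the start site, stronger peaks, nearest gene only and each replicate alone. Members with an IDR or pooled summit were named, with those just outside the limit, at most 3 genes per pathway list by IDR signal, and the members without a summit. The members, the lists and the rules were chosen with earlier results of these data known. Python 3.11.15, pandas 2.3.3, numpy 2.4.6 and Biopython 1.88 were used.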

Additional observations from a re-analysis of the deposited data

How the results depend on the processing

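Counts of members depended on the distance and on how many peaks were admitted. The IDR count of 6 was 10 at 1000 bp, 0 among its 2722 strongest peaks, and 3 to 7 with the strongest peaks of either replicate alone, the 3 being those of replicate 2. The 5 distinct IDR peaks became 8 at 1000 bp. The pooled count of 18 was 11 at 250 bp, 10 when the peak had to overlap the gene and 10 among the 10890 strongest peaks. Peak overlap also gave 13 distinct pooled peaks in place of 20 and a mean of 9 members per replicate in place of 15, and that mean was 5 among the 5445 strongest peaks, while leaving out either replicate left it at 15. Members with the strongest pooled summit downstream, 13 of 18, were 8 of 11 at 250 bp. In either replicate alone they were 11 to 12 of 15. This result and all its alternatives were chosen after seeing the data. Apart from the counts in either replicate alone, these settings admitted fewer or more peaks or bases. The range of 3 to 7 came from as many peaks as the IDR list holds, 5445 in each replicate, so there the replicates themselves differed. The other alternatives stayed within 1.5 times their counts. No paired analysis was possible because the study has 1 group. Unknown depth limits every statement on a missing summit.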

Other observations

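Upstream of the U6 row, a weaker pooled peak (signal 76.4, rank 13792) had its summit 49 bp from the start of the aspartate tRNA gene tRNA:Asp-GTC-1-11 and 737 bp from U6:96Aa.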
